A study of Mus musculus with 6 samples.

Results

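Rab GTPases are small membrane-bound switches, each of which marks particular compartments of vesicle traffic. They were examined in RAW 264.7, a mouse macrophage line, after 48 h with lipopolysaccharide (LPS, 100 ng/ml) and LPS-binding protein (LBP, 100 pM), compared with the same line left untreated for 48 h. The members were all probes whose platform gene symbol is Rab followed by digits and at most 1 letter, which gave 43 genes of the 10698 named on the array, or 61 of 16281 probes. Each of 6 two-colour arrays held RNA of treated and of untreated cells. The treated RNA carried the dye Cy5 on 3 arrays (called Cy5 arrays below, 1 for each of sets 1, 2 and 3) and Cy3 on the other 3 (Cy3 arrays, likewise 1 for each set), with the untreated RNA in the opposite dye. The untreated cells are the only control, so LPS and LBP cannot be told apart, and nothing in the labels says that the sets were separate cultures.

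A Rab protein cycles between a GTP-bound form that recruits effectors to a membrane and a GDP-bound form that is extracted into the cytosol. Exchange factors load GTP, GTPase-activating proteins end the signal, and a lipid tail added by geranylgeranyl transferase holds the protein in the membrane. In macrophages the family is best known for guiding the maturation of phagosomes, the recycling of surface receptors and the release of cytokines.

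All values are deposited log ratios, read as log2 of treated over untreated, so that a positive value means more RNA in treated cells. No source used here gives the base. Ratios listed at exactly 0 were taken as missing. Both orientations of a set were averaged to cancel an additive dye effect. limma then tested whether the 3 resulting values differed from 0, with Benjamini-Hochberg adjustment over every probe that had a value on all 6 arrays. Means are given ± SD of the 3 set means (n = 3), and an adjusted p under 0.05 counted as changed. The p-values measure the spread between sets, which may be technical. A ratio says nothing of how abundant a transcript was, and a change within each cell cannot be told apart from a change in the share of cells that express the gene.

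Of the 61 Rab probes, 56 probes for 40 genes had a value on all 6 arrays and were tested. In treated cells 10 probes for 8 genes rose and 2 probes for 2 genes fell. The genes that rose were Rab3d, Rab32, Rab22a, Rab13, Rab20, Rab21, Rab11a and Rab19, and those that fell were Rab11b and Rab1b. The 12 changed probes are 21.4% of the Rab probes tested, while 27.1% of all 12724 tested probes changed. By direction, 17.9% of the Rab probes rose, against 14.8% of all probes, and 3.57% fell, against 12.2% of all probes. The share of changed Rab probes was therefore not above that of the array as a whole. With probes averaged per gene, the same 8 genes rose and the same 2 fell among 40 Rab genes, while 26.1% of 9180 genes changed (14.3% higher and 11.9% lower).

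The Rab ratios were of ordinary size, with a median absolute ratio of 0.17 beside 0.16 over all tested probes. They lay between -0.48 and 1.09, with a median of 0.08, against a median of -0.01 over all tested probes. The mean was above 0 for 35 of 56 Rab probes. Only 1 Rab probe, of Rab3d, passed 1 in size, compared with 445 of all 12724 (3.50%). The SD between set means ran from 0.01 to 0.32 with a median of 0.13, close to the median of 0.15 over all probes. All 6 arrays had the same sign for 17 of the 56 Rab probes, 15 of them higher and 2 lower. That is 30.4%, beside 30.2% of all tested probes, of which 16.1% were higher and 14.1% lower on all 6.

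**Figure D1:**
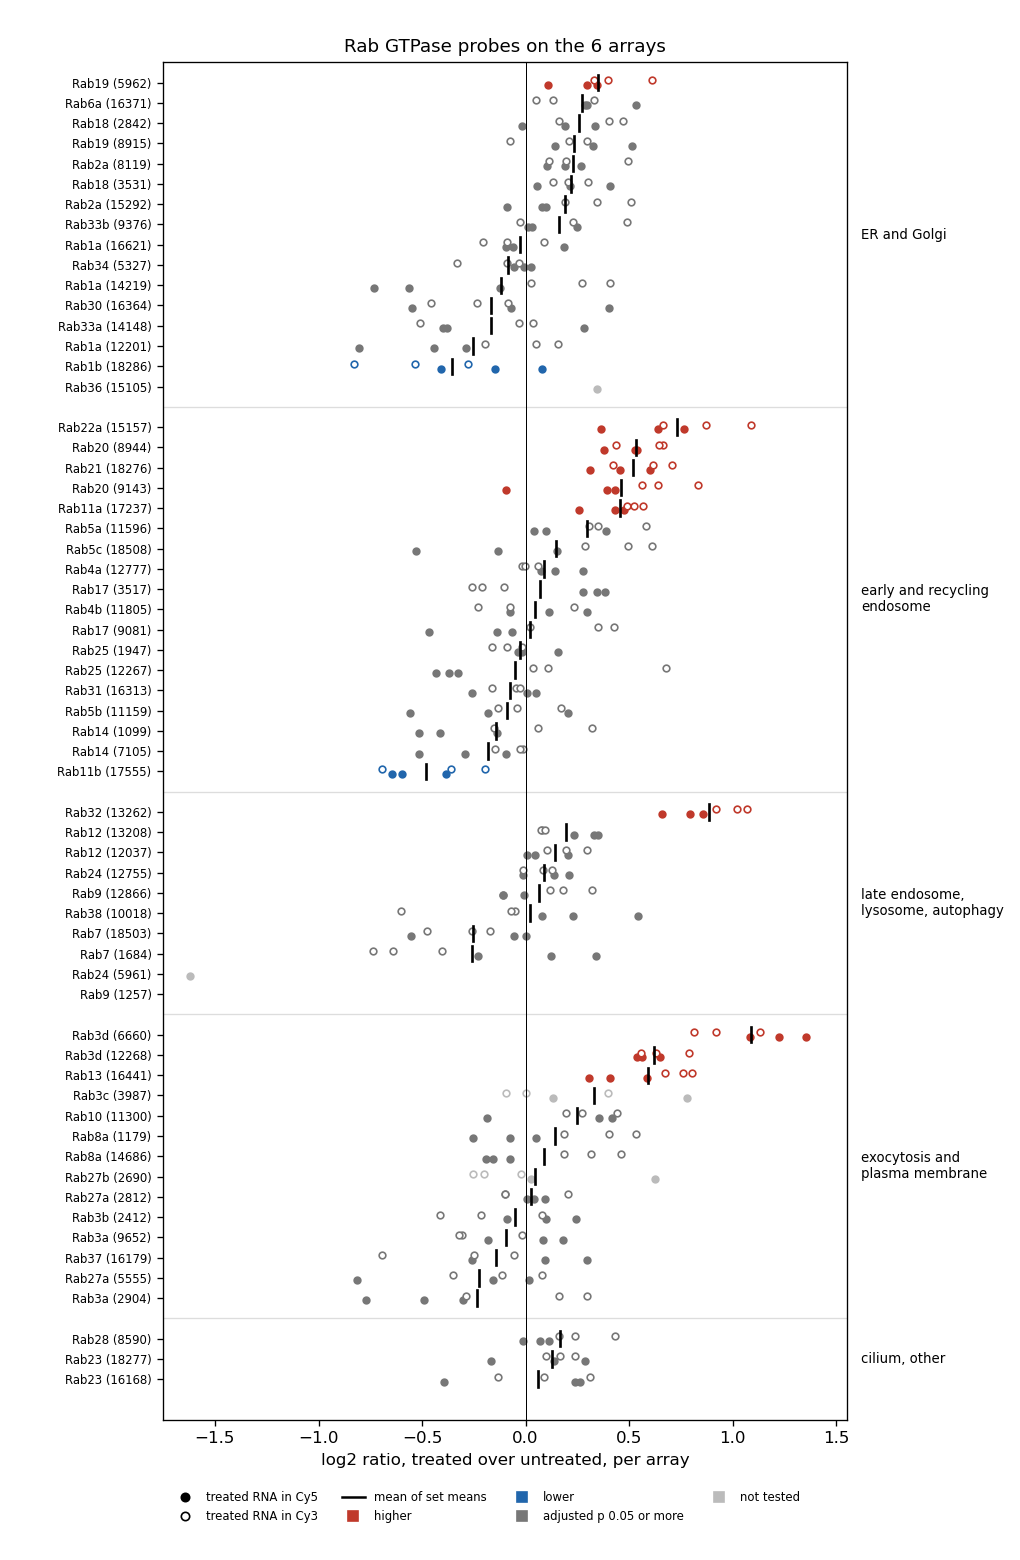
Log2 ratio of treated over untreated cells (x axis) on each of 6 arrays for the 61 Rab probes (y axis, gene and platform probe number), grouped by the compartment with which the protein is associated. Filled points are arrays with treated RNA in Cy5, open points arrays with treated RNA in Cy3, and the bar is the mean of set means. The 2 probes of Rab3d and the probe of Rab32 lie above 0.5 on every array, whereas most other probes spread around 0.

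**Figure D2:**
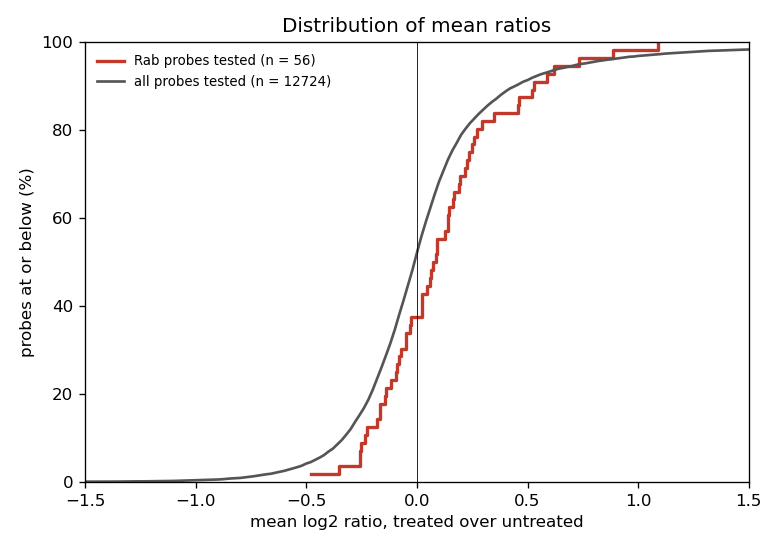
Cumulative percentage of probes (y axis) at or below a mean log2 ratio (x axis) for the 56 tested Rab probes and all 12724 tested probes. The Rab curve runs to the right of the other near 0 (medians of 0.08 and -0.01) and ends at 1.09.

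Among Rabs of exocytosis and the plasma membrane, 3 of 12 tested probes rose and 0 fell (25%, beside 27.1% of all probes). By direction, 14.8% of all probes rose and 12.2% fell. The 3 include both probes of Rab3d. At an unadjusted p under 0.05 the counts were 4 and 0, beside 2464 and 2410 of all 12724 tested probes. The largest Rab change belonged to Rab3d, a Rab of secretory granules. Its probe 6660 read 1.23, 1.09 and 1.35 on the Cy5 arrays and 0.81, 1.13 and 0.92 on the Cy3 arrays, each time for sets 1, 2 and 3 in turn. Its probe 12268 read 0.65, 0.56 and 0.54 on the Cy5 arrays and 0.56, 0.79 and 0.63 on the Cy3 arrays. All 12 readings were above 0, and the lowest of probe 6660 lay above the highest of probe 12268. Probe 6660 averaged 1.09 ± 0.06 (2.13-fold, limma adjusted p = 4.57e-05) and probe 12268 averaged 0.62 ± 0.05 (1.54-fold, adjusted p = 0.00103). The platform lists the same sequence record for both, so they are repeated measurements of 1 gene that agree in direction and differ in size by 0.47.

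Rab13, known from the traffic of junction proteins to the cell surface, read 0.41, 0.31 and 0.59 on the Cy5 arrays and 0.67, 0.80 and 0.76 on the Cy3 arrays. It was above 0 on 6 of 6 arrays and rose by 0.59 ± 0.07 (1.51-fold, limma adjusted p = 0.00148). The other members of this group did not pass. Rab3a, a Rab of synaptic vesicles, stood at -0.23 and -0.09 on its 2 probes, and Rab3b at -0.05. Rab3c was missing on 1 array and was not tested. It read 0.13 and 0.78 on the Cy5 arrays (sets 1 and 2) and 0.40, 0.00 and -0.09 on the Cy3 arrays, for a mean of 0.33 over its 2 complete sets. Of the Rab3 probes only those of Rab3d passed.

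Rab10, which carries Toll-like receptor 4 to the macrophage surface, averaged 0.25 ± 0.20 (limma adjusted p = 0.104). Rab8a, of polarised exocytosis, stood at 0.14 and 0.09 on 2 probes. Rab27a, which docks secretory granules and lysosome-related organelles, stood at 0.02 and -0.22. Rab37, linked to secretion of tumour necrosis factor, stood at -0.14 ± 0.29. Rab27b was missing on 1 array and was not tested. It averaged 0.05 over 2 complete sets. None of the tested probes of these genes was distinguishable from 0 at this number of sets.

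The RefSeq promoter window of the most changed member is shown here, with those of the other members whose sequence is described below. Each window runs from 250 bases before to 50 bases after the annotated start (GRCm38.p6), written 5′ to 3′ on the gene's strand. Capitals mark a match, on either strand, to the NF-kB consensus, the core of the interferon-stimulated response element (GAAA, any 2 bases, GAAA), the AP-1 site TGANTCA, the cyclic AMP response element TGACGTCA or the E-box CACGTG. Rab3d and Rab32 stand for the largest changes, Rab11a and Rab11b for close relatives that moved apart, and Rab19 for the one changed member with the interferon element.
Rab3d: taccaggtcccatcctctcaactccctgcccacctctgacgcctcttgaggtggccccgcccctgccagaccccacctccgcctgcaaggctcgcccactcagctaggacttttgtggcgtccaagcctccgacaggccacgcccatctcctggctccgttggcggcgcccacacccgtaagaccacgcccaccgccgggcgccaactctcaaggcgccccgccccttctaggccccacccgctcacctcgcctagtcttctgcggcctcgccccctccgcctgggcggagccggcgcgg
Rab32: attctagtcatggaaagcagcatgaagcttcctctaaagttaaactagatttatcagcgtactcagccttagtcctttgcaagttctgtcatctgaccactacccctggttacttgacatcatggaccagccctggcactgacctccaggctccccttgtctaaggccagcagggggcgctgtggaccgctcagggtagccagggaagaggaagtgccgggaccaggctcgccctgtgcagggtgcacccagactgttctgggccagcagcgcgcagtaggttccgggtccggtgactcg
Rab11a: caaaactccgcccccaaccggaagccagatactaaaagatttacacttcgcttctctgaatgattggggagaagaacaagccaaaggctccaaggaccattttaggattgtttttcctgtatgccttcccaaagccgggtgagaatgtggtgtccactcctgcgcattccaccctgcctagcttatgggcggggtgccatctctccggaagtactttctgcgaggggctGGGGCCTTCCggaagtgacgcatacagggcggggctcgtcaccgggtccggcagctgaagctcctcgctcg
Rab11b: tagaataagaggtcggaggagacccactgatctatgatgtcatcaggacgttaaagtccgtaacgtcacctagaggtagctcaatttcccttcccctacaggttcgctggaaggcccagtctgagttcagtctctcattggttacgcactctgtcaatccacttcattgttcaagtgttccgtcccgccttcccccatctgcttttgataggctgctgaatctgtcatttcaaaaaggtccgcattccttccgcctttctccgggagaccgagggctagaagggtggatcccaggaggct
Rab19: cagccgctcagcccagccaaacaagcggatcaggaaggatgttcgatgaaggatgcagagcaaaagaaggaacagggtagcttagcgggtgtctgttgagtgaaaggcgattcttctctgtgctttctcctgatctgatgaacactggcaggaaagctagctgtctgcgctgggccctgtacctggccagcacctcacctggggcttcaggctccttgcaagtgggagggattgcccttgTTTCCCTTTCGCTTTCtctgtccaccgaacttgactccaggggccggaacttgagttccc
The windows lie at chr9:21918134-21918433 (minus strand) for Rab3d, chr10:10558158-10558457 (minus strand) for Rab32, chr9:64737707-64738006 (minus strand) for Rab11a, chr17:33760437-33760736 (minus strand) for Rab11b and chr6:39381103-39381402 (plus strand) for Rab19. The windows of Rab3d and Rab32 held none of the 5 motifs.

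Among Rabs of the late endosome, lysosome and autophagosome, 1 of 8 tested probes rose and 0 fell (12.5%, beside 27.1% of all probes). At an unadjusted p under 0.05 the counts were 2 and 2, beside 2464 and 2410 of all 12724 tested probes. The probe that rose was that of Rab32, which acts in lysosome-related organelles and in the defence of macrophages against Salmonella, where it binds the itaconate-producing enzyme Acod1. It read 0.79, 0.86 and 0.66 on the Cy5 arrays and 1.07, 1.02 and 0.92 on the Cy3 arrays. Every array was above 0.6, and Rab32 rose by 0.89 ± 0.09 (1.85-fold, limma adjusted p = 1.71e-04). Its closest relative Rab38, which shares roles in melanosomes, read 0.23, 0.54 and 0.08 on the Cy5 arrays but -0.05, -0.60 and -0.07 on the Cy3 arrays. The sign of Rab38 thus followed the dye, and its mean was 0.02 ± 0.06 (adjusted p = 0.888).

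Rab7, the Rab of late endosomes and phagolysosome fusion, did not pass on either of 2 probes. Probe 1684 read -0.23, 0.34 and 0.12 on the Cy5 arrays and -0.64, -0.40 and -0.74 on the Cy3 arrays. The orientations did not overlap for this probe, and its mean of -0.26 ± 0.21 did not pass (limma adjusted p = 0.0979). On the Cy3 arrays alone it averaged -0.59 and passed (adjusted p = 0.00607). Probe 18503 gave nearly the same mean, -0.25 ± 0.23, with readings from -0.55 to 0.00. Rab12, which directs receptors to lysosomes, was above 0 on all 6 arrays with both probes (0.14 ± 0.06 and 0.19 ± 0.03), and neither passed (adjusted p = 0.26 and 0.128). Rab9, of transport from late endosomes to the Golgi, averaged 0.06 ± 0.04, and its other probe was listed at 0 on all 6 arrays. Rab24, linked to autophagy, averaged 0.09 ± 0.07 on the tested probe. The other Rab24 probe had 1 value, -1.62 in set 2 with treated RNA in Cy5, and was listed at 0 on the remaining 5 arrays, so no mean was formed.

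Among Rabs of the early and recycling endosome, 5 probes rose and 1 fell of 18 tested (33.3%, beside 27.1% of all probes). The 5 include both probes of Rab20, and the difference from all probes was not tested. Rab22a, which governs early endosome and recycling traffic, read 0.64, 0.36 and 0.76 on the Cy5 arrays and 1.09, 0.66 and 0.87 on the Cy3 arrays. It rose by 0.73 ± 0.19 (1.66-fold, limma adjusted p = 0.00102), and every array was above 0.3. Rab21, a regulator of integrin endocytosis, read 0.46, 0.31 and 0.60 on the Cy5 arrays and 0.71, 0.42 and 0.62 on the Cy3 arrays. It rose by 0.52 ± 0.13 (1.43-fold, adjusted p = 0.00392). With ratios of 0 kept as values, Rab22a and Rab21 did not pass (adjusted p = 0.056 and 0.0553), although neither probe holds a 0.

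Rab20, found on phagosomes, rose on both of its probes, for which the platform lists the same sequence record. Probe 8944 read 0.54, 0.53 and 0.38 on the Cy5 arrays and 0.66, 0.44 and 0.64 on the Cy3 arrays. Probe 9143 read 0.40, -0.09 and 0.43 on the Cy5 arrays and 0.56, 0.83 and 0.64 on the Cy3 arrays. The reading of -0.09 was the only one of 12 below 0. The means were 0.53 ± 0.06 (limma adjusted p = 0.002465) and 0.46 ± 0.08 (adjusted p = 0.00537). On the 3 Cy5 arrays alone, probe 9143 averaged 0.24 and did not pass (adjusted p = 0.262).

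Rab11a and Rab11b, closely related Rabs of the recycling endosome, moved in opposite directions. Rab11a read 0.47, 0.26 and 0.43 on the Cy5 arrays and 0.57, 0.52 and 0.49 on the Cy3 arrays, all above 0. Rab11b read -0.39, -0.60 and -0.65 on the Cy5 arrays and -0.36, -0.20 and -0.69 on the Cy3 arrays, all below 0. Rab11a rose by 0.46 ± 0.06 (1.37-fold, limma adjusted p = 0.00523) and Rab11b fell by 0.48 on the log2 scale, with an SD of 0.16 (1.39-fold, adjusted p = 0.00713). Rab11a exceeded Rab11b on 6 of 6 arrays, by 0.89, 0.79 and 1.13 in sets 1, 2 and 3 (mean 0.94 ± 0.18). An exact two-sided sign-flip permutation test over the 3 sets gave p = 0.25. That is the smallest p that 3 sets allow, so the test could not decide whether the pair differs. Only this pair was compared in this way, and its members had been called in opposite directions in these same data. With zeros kept as values Rab11b did not pass (adjusted p = 0.0779), and on the 3 Cy5 arrays alone Rab11a did not (adjusted p = 0.0541). Each gene rests on 1 probe.

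The remaining tested early and recycling endosome probes did not pass. Rab5a, the central Rab of early endosomes, read 0.39, 0.04 and 0.10 on the Cy5 arrays and 0.58, 0.31 and 0.35 on the Cy3 arrays. Although above 0 on all 6 arrays, its mean of 0.29 ± 0.17 did not pass (limma adjusted p = 0.0527). It passed with set as a random block (adjusted p = 0.0323), without a block (0.0168), with centred arrays (0.0489) and on the Cy3 arrays alone (0.0276). The paralogs Rab5b and Rab5c stood at -0.09 ± 0.12 and 0.15 ± 0.15. Rab14, which acts between endosomes and the Golgi and on phagosomes, stood at -0.18 and -0.14 on 2 probes, with 1 of them below 0 on all 6 arrays. Rab4a and Rab4b, of rapid recycling, stood at 0.09 and 0.04, and Rab31, of Golgi to endosome transport, at -0.07. Rab17 and Rab25, known chiefly from epithelial cells, lay between -0.05 and 0.07 on 4 probes.

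Among Rabs of the endoplasmic reticulum and Golgi, 1 of 15 tested probes rose and 1 fell (13.3%, beside 27.1% of all probes). At an unadjusted p under 0.05 the counts were 6 and 2, beside 2464 and 2410 of all 12724 tested probes. Rab19, a less studied Golgi-associated Rab, rose on probe 5962, which read 0.29, 0.11 and 0.34 on the Cy5 arrays and 0.61, 0.33 and 0.40 on the Cy3 arrays. The mean was 0.35 ± 0.12 (1.27-fold, limma adjusted p = 0.0222). Its other probe, 8915, made from the same sequence record, read 0.14, 0.51 and 0.33 on the Cy5 arrays and 0.30, -0.07 and 0.21 on the Cy3 arrays, and its mean of 0.24 ± 0.03 did not pass (adjusted p = 0.0715). Probe 5962 did not pass without set 1 (adjusted p = 0.112), without set 3 (adjusted p = 0.0668), on the Cy5 arrays alone (adjusted p = 0.167) or with zeros kept (adjusted p = 0.0789). With zeros kept, probe 8915 passed instead (adjusted p = 0.039).

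Rab1b, which drives transport from the endoplasmic reticulum to the Golgi, read -0.15, 0.08 and -0.41 on the Cy5 arrays and -0.28, -0.54 and -0.83 on the Cy3 arrays. It was below 0 on 5 of 6 arrays and fell by 0.35 on the log2 scale, with an SD of 0.23 (1.28-fold, limma adjusted p = 0.0392). Its call was lost under 4 alternatives, as was that of Rab19. Without set 2 the mean was -0.42 (adjusted p = 0.081), without set 3 it was -0.22 (adjusted p = 0.242), on the Cy5 arrays alone it was -0.16 (adjusted p = 0.427), and with zeros kept the adjusted p was 0.181. The paralog Rab1a stood at -0.26, -0.12 and -0.03 on 3 probes, none of which passed.

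Rab6a, of traffic within and back from the Golgi, read 0.53, 0.29 and 0.30 on the Cy5 arrays and 0.33, 0.13 and 0.05 on the Cy3 arrays. It was above 0 on all 6 arrays with a mean of 0.27 ± 0.14 that did not pass (limma adjusted p = 0.0606). It passed with set as a random block (adjusted p = 0.0366) and without a block (0.0182). Rab2a, of the intermediate compartment between both organelles, stood at 0.23 and 0.19. Rab18, of the endoplasmic reticulum and lipid droplets, stood at 0.26 and 0.22 on 2 probes (adjusted p = 0.0807 and 0.114). Rab33b stood at 0.16, Rab34 at -0.08, Rab30 at -0.17 and Rab33a at -0.17. Rab36 had a value on 1 array only. The 3 probes of Rab23, an antagonist of Hedgehog signalling, and of Rab28, known from cilia, lay between 0.06 and 0.17, and 0 passed, also at an unadjusted p under 0.05.

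Several Rab ratios changed sign with the dye orientation. For 7 of 56 tested Rab probes (12.5%, beside 7.21% of all tested probes) every Cy5 array had one sign and every Cy3 array the other. Rab17 probe 3517 averaged 0.33 on the Cy5 arrays and -0.19 on the Cy3 arrays, and Rab17 probe 9081 averaged -0.22 on the Cy5 arrays and 0.27 on the Cy3 arrays. Rab1a probe 14219 averaged -0.47 and 0.23 in the same order, Rab25 probe 12267 averaged -0.38 and 0.28, and Rab8a probe 14686 averaged -0.14 and 0.32. Rab38 and Rab9 were the other two genes. In limma's test of the dye effect, 0 of 56 Rab probes passed (lowest adjusted p = 0.0977) beside 23 of all 12724 probes that passed (0.181%). At an unadjusted p under 0.05 there were 16 Rab probes (28.6%), beside 3348 of all probes (26.3%). None of the 7 is among the 12 changed probes.

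Of 43 Rab genes, 17 had more than 1 probe and 15 had more than 1 tested probe. Their tested probes lay within 0.01 to 0.14 of each other for all but 3 genes. Those were Rab3d (0.47), Rab27a (0.25) and Rab1a (0.23). Rab7 had the closest pair, apart by 0.01. Both probes passed for Rab3d and Rab20, 1 of 2 for Rab19 and none for the other 12 genes. Probes of 1 gene share a target and are not separate support, and those of Rab3d, Rab20, Rab19 and a pair of Rab1a were made from one record each.

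**Figure D3:**
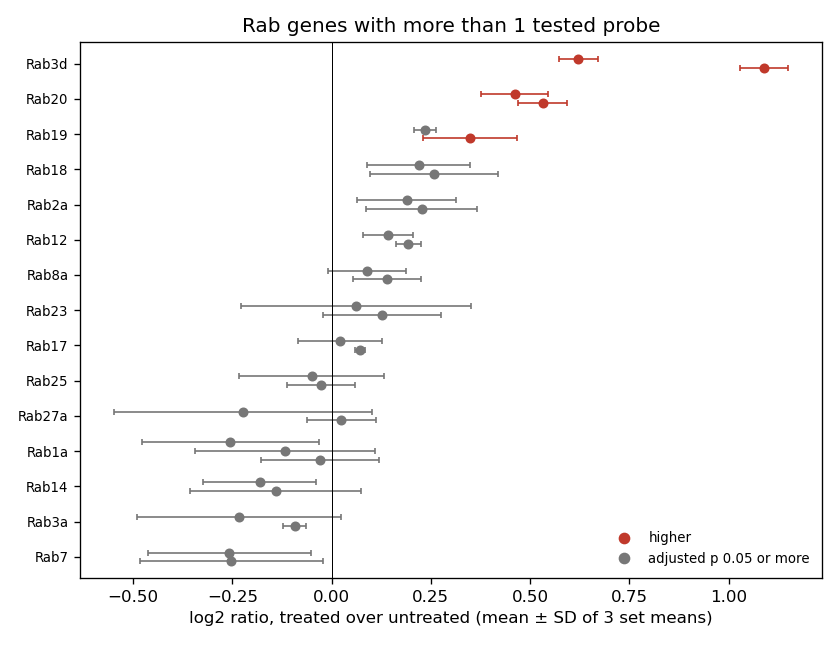
Mean log2 ratio of treated over untreated cells (x axis, error bars are the SD of 3 set means) for each tested probe of the 15 Rab genes with more than 1 (y axis). Both probes of Rab3d, at 0.62 and 1.09, and both of Rab20, at 0.46 and 0.53, passed the threshold, and their bars do not reach 0.

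The RefSeq table held a promoter window for 35 of the 43 genes, 41 windows in all. Those windows were rich in G and C, with a median of 61.3% and a range of 50.7% to 74.7%, compared with a median of 56.3% over 21263 windows of protein-coding genes. A GC box, GGGCGG on either strand, was found for 25 of 35 Rab genes (71.4%), compared with 49.2% of 17492 protein-coding genes, and the letters TATAAA for 2 (5.71%, compared with 14.8%). The NF-kB consensus was found for 2 Rab genes (5.71%, compared with 10.5%), and among the 10 changed genes only in Rab11a, where it begins 21 bases before the start. The interferon element core was found only in Rab19 (2.86% of Rab genes, compared with 3.94% of all), in 2 overlapping copies whose first bases lie 10 and 4 bases before the start. An E-box was found for 6 Rab genes (17.1%, compared with 8.91%), among them the changed genes Rab20 and Rab21. The AP-1 site was found for 1 Rab gene and the cyclic AMP response element for 2, none of them changed. In the windows printed above, those of Rab11b, Rab3d and Rab32 have no capitals. These matches describe letters, not binding.

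The genes that act on Rabs were read from the same fit. For prenylation and escort, 12 probes of 8 genes were tested, of which 2 rose and 0 fell (16.7%, beside 27.1% of all probes). At an unadjusted p under 0.05 the counts were 3 and 3, beside 2464 and 2410 of all 12724 tested probes. Both probes that rose were of Rabggtb, the catalytic subunit of the geranylgeranyl transferase that lipidates Rabs. They stood at 0.56 ± 0.04 (limma adjusted p = 0.00171) and 0.51 ± 0.14 (adjusted p = 0.00465). With zeros kept, 1 of them passed. The number lower was 1 without set 1, without set 3, on the Cy5 arrays alone and on the Cy3 arrays alone, and 2 without the set block. The partner subunit Rabggta stood at -0.31 and -0.24 on 2 probes without passing (adjusted p = 0.0563 and 0.11).

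Of 25 tested probes of exchange factors, 5 rose and 3 fell (32.0%, beside 27.1% of all probes, with a median of 0.01). Rabgef1, which activates Rab5 and Rab21, rose on both probes, by 0.98 ± 0.16 (limma adjusted p = 1.53e-04) and 0.54 ± 0.11 (adjusted p = 0.00279), above 0 on 6 of 6 arrays each. Dennd6b rose by 0.93 ± 0.15 (1.90-fold, adjusted p = 1.93e-04). Sbf1 fell by 0.49, with an SD of 0.08 (adjusted p = 0.00404), and Madd, which acts on Rab3 and Rab27, fell by 0.44, with an SD of 0.21 (adjusted p = 0.015). Without set 1 only 3 of the exchange factor probes rose, and without set 2 only 1 fell.

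Of 11 tested probes of GTPase-activating proteins, 2 rose and 1 fell (27.3%, beside 27.1% of all probes, with a median of 0.03). Both that rose were probes of Rabgap1l, at 0.74 ± 0.18 and 0.66 ± 0.11 (limma adjusted p = 8.87e-04 and 0.00101). Its probe 2917 averaged 0.26 on the Cy5 arrays and 1.06 on the Cy3 arrays, with 1 array below 0. Tbc1d5, which acts on Rab7, fell by 0.33, with an SD of 0.07 (adjusted p = 0.023), a call that was lost without any 1 of the sets, on the Cy3 arrays alone and with zeros kept. The number lower was then 0 without set 1, without set 3 and with zeros kept. Without set 2 and on the Cy3 arrays alone, Tbc1d30, which was missing on 1 array, passed in its place. With zeros kept, and on the Cy5 arrays alone, 1 of these probes rose. The other 2 Rabgap1l probes were missing on some arrays and were not tested.

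Among effectors and tethers, 4 of 38 tested probes rose and 4 fell (21.1%, beside 27.1% of all probes, with a median of 0.02). The highest were Lrrk2, a kinase that phosphorylates several Rabs, at 0.61 ± 0.14 (limma adjusted p = 0.00179), and Sytl3, a Rab27 effector, at 0.53 ± 0.12 (adjusted p = 0.00316). The lowest were Kif20a, a kinesin first found as a Rab6 partner and better known from cell division, which fell by 0.75 with an SD of 0.14 (adjusted p = 5.72e-04), and Rufy3, which fell by 0.40 with an SD of 0.09 (adjusted p = 0.0102). Without set 2 only 2 fell, and with zeros kept 2 rose and 1 fell. On the Cy3 arrays alone 9 rose and 2 fell, and without the set block 7 rose and 5 fell.

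SNAREs, which carry out the membrane fusion that Rabs prepare, and their partners were read in the same way. Of 48 tested probes of 39 genes, 16 rose and 0 fell (33.3%, beside 14.8% higher and 12.2% lower of all probes). At an unadjusted p under 0.05 the counts were 25 and 1, beside 2464 and 2410 of all 12724 tested probes. The mean was above 0 for 40 of the 48, with a median of 0.22, against -0.01 over all tested probes. Stx11, a syntaxin of immune cells, rose by 1.38 ± 0.31 (2.60-fold, limma adjusted p = 9.08e-05). Stxbp3, a partner of plasma membrane syntaxins, rose by 0.88 ± 0.11 (1.84-fold, adjusted p = 2.00e-04). The smallest increases past the threshold were those of Stxbp2, at 0.30 ± 0.08 (adjusted p = 0.0336), and Ykt6, at 0.31 ± 0.16 (adjusted p = 0.044). Every one of the 16 was above 0 on all 6 arrays. The count was 9 without set 1 and 6 with zeros kept. Vamp1, a vesicle SNARE, was below 0 on all 6 arrays at -0.24 (adjusted p = 0.0725). The counts were 23 higher and 1 lower without the set block, 20 and 1 with set as a random block, and 11 and 1 on the Cy5 arrays alone.

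Arf, Arl and Sar1 proteins, other small GTPases of vesicle traffic, gave 0 changed probes of 17 tested by limma, beside 27.1% of all probes. The count was also 0 at an unadjusted p under 0.05, beside 2464 higher and 2410 lower of all 12724 tested probes. Means of the 17 lay between -0.22 and 0.17. Of genes with Rab-like names outside the naming rule, 1 probe was measured, that of Ift22, at 0.27 ± 0.35 without passing. The difference between Rab probes and these lists was not tested.

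**Figure D4:**
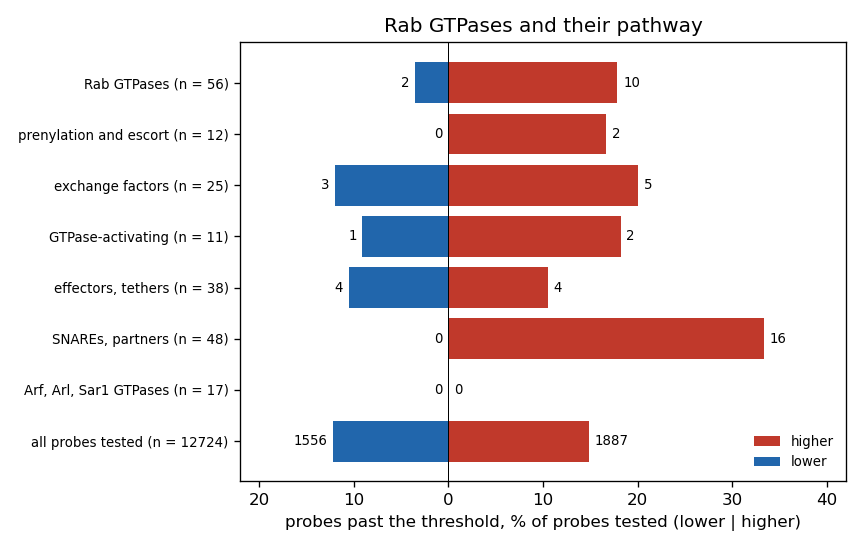
Percentage of tested probes past adjusted p 0.05 that were higher (right of 0) or lower (left of 0) in treated cells (x axis), for Rab GTPases, 6 related gene lists and all probes tested (y axis, with the number tested). Numbers beside the bars are probe counts. SNAREs and their partners show 16 higher and 0 lower, Rab GTPases 10 and 2, and Arf, Arl and Sar1 GTPases none.

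Macrophage identity could not be checked by level, since ratios carry none. Of 9 tested probes for macrophage markers, 3 rose and 1 fell (44.4%, beside 27.1% of all probes). Those that rose were Fcgr1 at 1.96, Adgre1 at 0.94 and Ptprc probe 7610 at 0.40, and Csf1r fell, at -0.53. Cd14, Cd68 and Mertk stood at 0.01, 0.02 and 0.05 without passing. The other tested Ptprc probes, 5226 and 2799, stood at -0.08 and 0.08 without passing. Of 20 tested probes for markers of other cell types, 2 rose (Cd79a at 0.63 and Dcn at 2.68) and 0 fell. That is 10%, beside 27.1% of all probes. The counts at an unadjusted p under 0.05 were 2 and 2, beside 2464 and 2410 of all 12724 tested probes. The part of these markers in the Rab results was not tested. The sign of the ratios was checked on Il1b, Il6, Tnf and Nos2, known LPS targets, whose 9 probes were above 0 on all 6 arrays, between 0.88 and 3.81.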

How the data were processed

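RNA of treated and untreated RAW 264.7 cells was compared within each of 6 two-colour arrays. The deposited values are 1 log ratio per probe and array, read here as log2 of Cy5 over Cy3. No source used here names the log base, scanner, background correction or dye normalization. The sign was turned on the 3 arrays with treated RNA in Cy3. Exact zeros (7.97% to 17.8% of values per array) were set to missing, and 12724 of 16281 probes with values on all 6 arrays were fitted. Set means were tested with limma 3.58.1 (R 4.3.3; lmFit with an intercept, eBayes, Benjamini-Hochberg). The procedure was tested on simulated data with arrays drawn independently. It recovered 43% of 100 added changes of 0.5 and 95% of 100 added changes of 1, so there a change of 0.5 was often missed. Only these of the 12724 simulated probes were changed, whereas 27.1% of tested probes were called in the data. The share recovered in the data may therefore differ and was not tested.

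Probes were named from the platform annotation (13738 with 1 symbol, 52 with several, 2491 with none). All 61 Rab probes matched RefSeq (GRCm38.p6) by gene ID with the same symbol. Promoter windows are RefSeq's. The members and gene lists were chosen with earlier results of these data known. Every changed member is named. Array readings are printed for changed members and for the 4 others with the largest means. For each other list, means are printed for its 2 highest and 2 lowest changed genes. Readings of Rab38, Rab19 probe 8915 and some further means were added after their values were seen. Alternatives covered zeros, completeness, replication, sets left out, centring, scaling, dye orientation, the variance prior and averaging per gene. Arrays turned to 1 direction correlated at 0.73 to 0.81 within an orientation and at 0.44 to 0.69 between orientations.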

Additional observations from a re-analysis of the deposited data

How the results depend on the processing

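Of the 12 changed Rab probes, those of Rab3d (both), Rab32, Rab13 and Rab20 probe 8944 passed under all 12 alternatives run per probe, and 0 Rab probes past the threshold changed sign under any of them. With ratios of 0 kept as values, limma called 8 Rab probes higher and 0 lower (2 lower at an unadjusted p under 0.05), and 903 and 504 of all 16281 probes. Of the 181 probes of the related gene lists (pathway probes, with Arf, Arl and Sar1 GTPases and Ift22 included), 14 were higher and 3 lower. The main values were 10 and 2 for Rab probes, 1887 and 1556 for all probes, and 29 and 8 for pathway probes. Of the 8 Rab calls with zeros kept, 7 were shared with the 12. Without replicate set 1, 2 or 3, the Rab count was 9 to 10 higher and 1 to 2 lower, the count of all probes 1379 to 1698 higher and 851 to 1151 lower, and that of pathway probes 20 to 25 higher and 4 to 8 lower. The labels do not say whether arrays with the same set number share RNA extracts. Deviations of same-numbered arrays correlated at 0.53, 0.08 and 0.17. Compared with the arrays of the other orientation, 5 of 6 arrays correlated best with the one of their own number. With 6 arrays and no replicate block, 16 Rab probes were higher and 2 lower. The counts were then 2242 and 2051 for all probes, and 40 and 13 for pathway probes. With set as a random replicate block the Rab counts were 12 and 2. Those of all probes were then 1885 and 1520, and those of pathway probes 33 and 10. These fits shared all 12 Rab calls. Without a block, both Rab18 probes, Rab2a probe 8119 and Rab12 probe 13208 also passed. Rab3a probe 2904 and Rab1a probe 12201 passed as lower on the Cy5 arrays alone, and Rab5c and Rab8a probe 1179 as higher on the Cy3 arrays alone. The cause of these shifts was not tested. Of the sets left out, set 2 gave the lowest counts of lower probes (851 of all probes, 4 pathway probes). The smallest Rab change called with 3 sets was 0.35 in size.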
